A study of Mus musculus with 10 samples.

Results

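The muscarinic and nicotinic acetylcholine receptor genes Chrm1, Chrm2, Chrm3, Chrm4, Chrna3, Chrna4, Chrna5, Chrna7, Chrnb2 and Chrnb4 were followed in 10 inspiratory neurons of the preBötzinger complex (preBötC), a brainstem region known for driving inspiratory breathing. They are 10 of the 55367 genes listed in the deposited tables, and they were chosen by name. Each sample is 1 neuron that was recorded in a slice by whole-cell patch clamp, after which its contents were drawn into the pipette, reverse transcribed, amplified and sequenced. The 4 Type-1 neurons are samples 4 (P3), 5 (P0), 6 (P3) and 7 (P3), the 1 Type-2 neuron is sample 1 (P0), and the 5 Unknown neurons, whose physiology was ambiguous, are samples 2 (P2), 3 (P0), 8 (P0), 9 (P2) and 10 (P1), where P is the postnatal day. Samples 1, 5, 6 and 7 are labelled Dbx1-derived and come from Dbx1;Ai148 mice, in which Cre recombinase driven by the Dbx1 promoter switches on the calcium indicator GCaMP6f, on a C57Bl/6J or mixed C57Bl/6J;CD1 background. Samples 2, 3, 4, 8, 9 and 10 are labelled WT and come from CD-1 mice without a reporter, so that among Type-1 and Unknown neurons type and mouse line cannot be told apart except through sample 4. No animal is named in the labels and the Type-2 group is 1 neuron, so no test between types was made and means are given with the SD over neurons.

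Acetylcholine acts on receptors of 2 kinds. The muscarinic receptors couple to G proteins: those encoded by Chrm1, Chrm3 and Chrm5 act through Gq and phospholipase C, and those encoded by Chrm2 and Chrm4 through Gi/o, which lowers cyclic AMP and can open inwardly rectifying potassium channels. The nicotinic receptors are cation channels built of several subunits: the product of Chrna7 can form a channel by itself, those of Chrna3 and Chrna4 need a beta subunit such as those of Chrnb2 or Chrnb4, and that of Chrna5 joins as an accessory subunit. Acetylcholine and nicotine are both known to modulate inspiratory rhythm in brainstem slices.

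The libraries held between 21392146 and 36629393 fragments on genes. Levels are given in FPKM, fragments counted per kilobase of gene length and scaled to the fragments on genes of each library, and 1 FPKM was taken as the limit for a detected gene. A count of 0 was given a limit of 3 fragments, which for the 10 genes is at most 0.0974 FPKM in any library; the exact Poisson interval used below for other counts would put it at 3.69 fragments. Limits and intervals cover counting error only. Sample 4 stood apart: its 8 neuronal marker genes averaged 2.10 on the log2(FPKM + 1) scale against 4.51 or more in the other neurons, and 8 of the 8 microglia markers were at 1 FPKM or more, averaging 9.89. The microglia markers also reached 8 of 8 in sample 2, at a mean of 7.14. Astrocyte markers were high in samples 2, 3 and 8, with 8, 8 and 9 of 10 at 1 FPKM or more and means of 4.87, 5.35 and 4.70, and oligodendrocyte lineage markers averaged 3.68 and 3.32 in samples 2 and 3. The part of these cells in the receptor levels was not tested. Samples 1 to 4 had between 5055 and 6795 genes at 1 FPKM or more, and samples 5 to 10 between 6632 and 9307. For genes nearly private to 1 library, the other libraries held 0 to 0.158% of that donor's count. Reads passed between libraries and real low expression were not told apart in these rates. The number of fragments that the rates give, called expected from other libraries, is set beside low counts.

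Of the 10 receptor genes, 5 were detected in 1 neuron or more: Chrm2, Chrna3, Chrna4, Chrna7 and Chrnb2. A further 2, Chrm3 and Chrnb4, had fragments but stayed below 1 FPKM everywhere, and 3, Chrm1, Chrm4 and Chrna5, had 0 fragments in all 10 neurons. Over the 100 combinations of gene and neuron, 16 were at 1 FPKM or more, or 16%, where 29% of such combinations reached that level over the 21535 protein-coding genes. Of the rest, 66 held 0 fragments and 18 held fragments below 1 FPKM. The receptor genes were thus detected less often than protein-coding genes at large, a description of these libraries that was not tested.

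**Figure D1:**
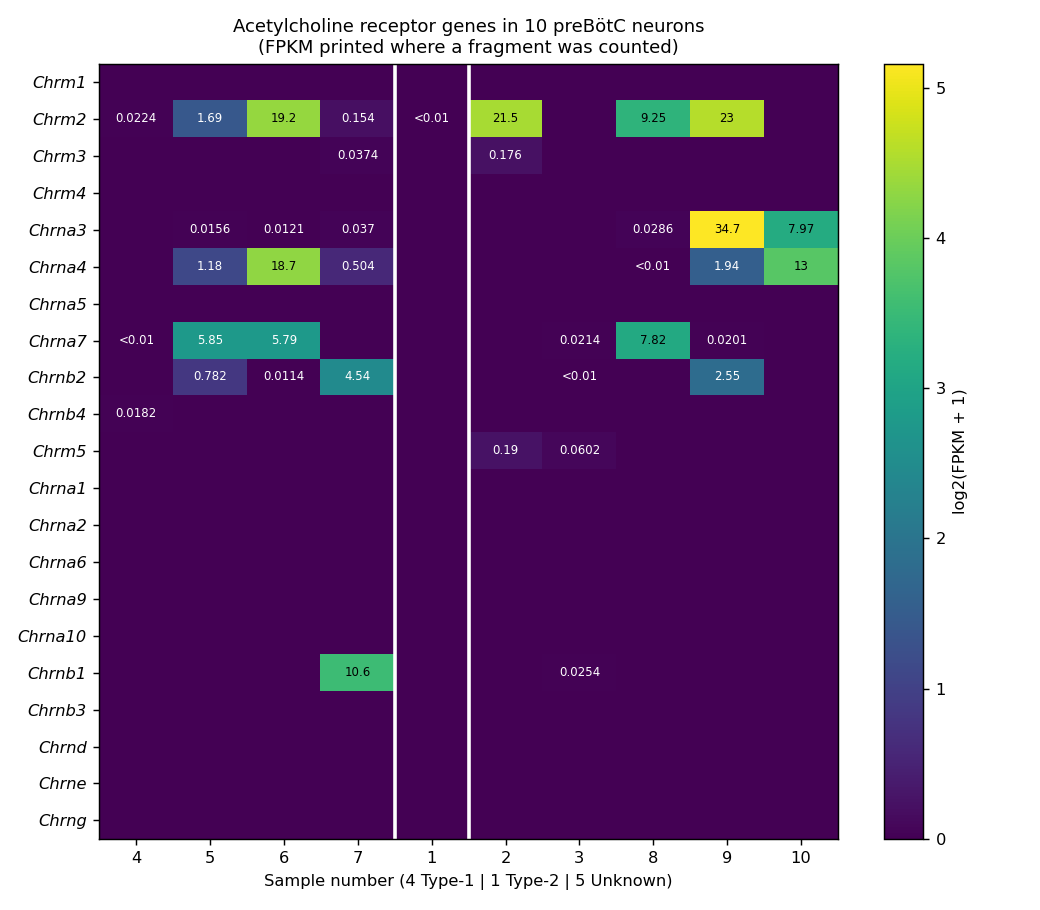
Level of the 10 receptor genes (Chrm1 to Chrnb4, top) and of the 11 other acetylcholine receptor genes (bottom) in each neuron; columns are samples grouped by neuron type, colour is log2(FPKM + 1), and FPKM is printed where a fragment was counted. Chrm2 is detected in 5 neurons and Chrna4 in 4, while most rows are empty.

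Chrm2, which encodes the Gi/o-coupled M2 receptor, was the receptor gene detected in the most neurons and had the highest mean, 7.48 ± 9.93 FPKM (SD, n = 10 neurons). It lies on chromosome 6 (36388084 to 36528414, plus strand, GRCm38). It was at 21.5 FPKM in sample 2, 1.69 in sample 5, 19.2 in sample 6, 9.25 in sample 8 and 23 FPKM in sample 9. It was at 0.154 FPKM in sample 7, 0.0224 in sample 4 and 0.00772 in sample 1, and at 0 fragments in samples 3 and 10. The 5 neurons above the limit therefore included 2 of the 4 Type-1 neurons and 3 of the 5 Unknown neurons, and the Type-2 neuron was not among them. The counts behind these levels were 4714 fragments in sample 2 (exact 95% Poisson interval 4580 to 4851), 3661 in sample 6, 3073 in sample 9, 1487 in sample 8 and 374 in sample 5 (337 to 414). Sample 7 held 24 fragments beside 1.87 expected from other libraries, whereas the 4 fragments of sample 4 and the 1 of sample 1 stood beside 3.89 and 1.76 expected. Chrm2 shares 142 of its 6053 exon bases with 9330158H04Rik, a gene on the opposite strand, and the libraries do not mark strand. That neighbour had 1, 244, 16, 314 and 716 fragments in samples 2, 5, 6, 8 and 9, the neurons with Chrm2. It had 2, 548, 0, 712 and 0 fragments in samples 1, 3, 4, 7 and 10. Reads of the shared bases cannot be told apart.

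The transmitter genes of the same neurons can be set beside these levels. Slc17a6, the vesicular glutamate transporter, was at 101, 158, 156 and 230 FPKM in samples 5, 6, 7 and 8, of which 3 had Chrm2 at 1 FPKM or more and sample 7 did not. Gad1, a GABA-synthesising enzyme, was at 71.8, 37.2 and 92 FPKM in samples 1, 3 and 10, and these 3 neurons held 1, 0 and 0 fragments of Chrm2. Gad1 was also at 8.28 FPKM in sample 8, where Chrm2 was at 9.25 FPKM, and Slc32a1, the vesicular GABA and glycine transporter, was at 5.95 FPKM in sample 2, where Chrm2 was at 21.5 FPKM. Gad2, the other such enzyme, was at 43.5, 22.9 and 34.2 FPKM in samples 1, 3 and 10, and also at 5.14 in sample 7 and 2.53 in sample 4. Slc6a5, a glycinergic marker, was at 146 FPKM in sample 1 and 8.60 in sample 10. Slc17a6 was at 1.85 FPKM in sample 2. Samples 1 and 3 had the lowest shares of protein-coding genes at 1 FPKM or more, 19.2% and 19.5%. Sample 9 held Slc18a3, the vesicular acetylcholine transporter, at 444 FPKM together with Chrm2 at 23 FPKM.

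The Gq-coupled muscarinic genes were near or at 0. Chrm3 (chromosome 13, 9875486 to 10360847, minus strand) had 40 fragments in sample 2 (28.6 to 54.5 by the Poisson interval), or 0.176 FPKM, and 6 in sample 7, or 0.0374 FPKM, with fewer than 1 fragment expected from other libraries in either. In the other 8 neurons Chrm3 had 0 fragments, which allows at most 0.0224 FPKM. Chrm1 (chromosome 19, 8663789 to 8683587, plus strand) had 0 fragments in each library, which allows between 0.0126 and 0.0216 FPKM, and Chrm5, which is not among the 10, had 11 fragments in sample 2 and 3 in sample 3. Sample 2 thus held fragments of 3 muscarinic genes, with Chrm2 far above the others on the FPKM scale. Chrm4 (chromosome 2, 91927249 to 91928688, plus strand), the other Gi/o-coupled gene, had 0 fragments in each library. Its model is 1440 bases long, so that the same zero allows up to 0.0974 FPKM.

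**Figure D2:**
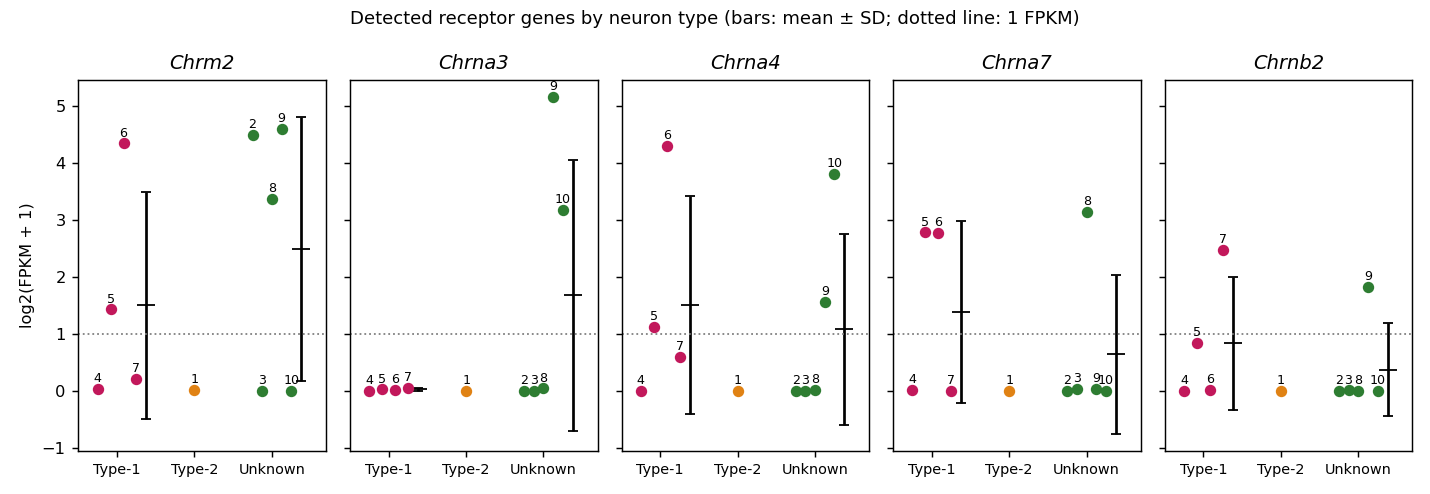
Levels of the 5 detected receptor genes on the log2(FPKM + 1) scale by neuron type; each point is 1 neuron with its sample number, bars show the mean ± SD over neurons of a type, and the dotted line is 1 FPKM. Type-1 and Unknown neurons overlap for each gene, and the Type-2 neuron, sample 1, lies at the bottom of each panel.

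Chrna4, the alpha subunit that commonly pairs with the product of Chrnb2, was detected in 4 neurons, with a mean of 3.53 ± 6.66 FPKM (SD, n = 10 neurons). It lies on chromosome 2 (181018380 to 181043546, minus strand). It was at 18.7 FPKM in sample 6, 13 in sample 10, 1.94 in sample 9 and 1.18 FPKM in sample 5, from 2955, 1995, 215 and 217 fragments. Sample 7 was below the limit at 0.504 FPKM (65 fragments, 2.08 expected from other libraries), sample 8 held 1 fragment and samples 1 to 4 held 0. Samples 6 and 10 were thus well above all others, 1 of them Type-1 and 1 Unknown, and the mean was 1.85 FPKM without sample 6.

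Chrna7, whose product can form channels without other subunits, lay between 5.79 and 7.82 FPKM in the neurons where it was detected. It lies on chromosome 7 (63098692 to 63212569, minus strand), and its mean was 1.95 ± 3.18 FPKM (SD, n = 10 neurons). It was at 5.85 FPKM in sample 5, 5.79 in sample 6 and 7.82 FPKM in sample 8, from 966 (906 to 1029 by the Poisson interval), 821 (766 to 879) and 936 (877 to 998) fragments. In the other 7 neurons it had between 0 and 3 fragments, at most 0.0214 FPKM, and the mean was 1.30 FPKM without sample 8. All 3 neurons with Chrna7 held Slc17a6 at 101 FPKM or more and Chrm2 at 1.69 FPKM or more. The reverse did not hold. Sample 7 had Slc17a6 at 156 FPKM and 0 fragments of Chrna7. Samples 2 and 9 had Chrm2 at 21.5 and 23 FPKM, with 0 and 2 fragments of Chrna7.

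Chrna3 was the receptor gene with the highest value in any neuron, 34.7 FPKM in sample 9, from 4036 fragments (3912 to 4162 by the Poisson interval). It was at 7.97 FPKM in sample 10, from 1280 fragments. Both are Unknown neurons. In samples 5, 6, 7 and 8 it had 3, 2, 5 and 4 fragments, beside 4.43, 1.97, 2.88 and 2.26 expected from other libraries, and in samples 1 to 4 it had 0. Sample 9 gave 81.2% of the summed FPKM of Chrna3, and the mean of 4.28 ± 10.99 FPKM (SD, n = 10 neurons) fell to 0.896 FPKM without it. Prph, the intermediate filament peripherin of motor and peripheral neurons, was at 719 FPKM in sample 9 and at 24.6 FPKM in sample 10. No other neuron exceeded the 6.76 FPKM of sample 3. Other marker genes of cholinergic motoneurons did not follow in sample 10, which had 0 fragments of Chat, Slc5a7, Isl1 and Mnx1 and 4 of Slc18a3. Sample 10 also held Gad1 at 92 FPKM. In sample 9, Isl1 was at 38.1 FPKM and Mnx1 at 0 fragments.

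Chrna3 stands in a cluster with Chrna5 and Chrnb4 on chromosome 9, and these neighbours were read out very differently. In GRCm38, Chrna5 spans 54980880 to 55007779 on the plus strand, Chrna3 spans 55010111 to 55026562 on the minus strand and Chrnb4 spans 55028154 to 55048779 on the minus strand, with 2331 bases between the first pair and 1591 between the second. No exon base of the 3 genes is shared with another gene in GENCODE M21. No neuron held a fragment of Chrna5 (0 in all 10), a zero that allows at most 0.0449 FPKM. Chrnb4 had 2 fragments in sample 4 and 0 elsewhere, also in samples 9 and 10. The 250 bases before the start of Chrna3 and of Chrna5, as given by RefSeq on GRCm38.p6, are shown because these neighbours differ most in detection. Capitals mark GGGCGG or its complement CCGCCC, the GC box bound by factors of the Sp family, searched on both strands.
Chrna3 promoter (chr9:55026563-55026812, minus strand): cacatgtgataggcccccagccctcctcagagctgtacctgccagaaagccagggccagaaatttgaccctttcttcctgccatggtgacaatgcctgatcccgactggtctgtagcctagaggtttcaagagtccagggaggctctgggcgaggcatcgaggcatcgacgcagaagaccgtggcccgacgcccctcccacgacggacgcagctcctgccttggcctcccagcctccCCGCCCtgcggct
Chrna5 promoter (chr9:54980630-54980879, plus strand): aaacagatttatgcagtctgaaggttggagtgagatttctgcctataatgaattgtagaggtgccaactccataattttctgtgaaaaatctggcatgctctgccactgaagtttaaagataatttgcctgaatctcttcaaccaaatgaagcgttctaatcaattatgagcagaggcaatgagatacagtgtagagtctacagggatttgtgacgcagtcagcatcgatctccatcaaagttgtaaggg
The Chrna3 window held 1 match, which begins 13 bases before the start, and had a GC content of 63.2%. The Chrna5 window held 0 matches and had a GC content of 40%. Over 32851 promoter windows of the same length, 32.7% held a match and the median GC content was 52.4%. A match says only that these letters are in the window. No window is shown for Chrnb4, the other neighbour that was not detected. A link between the windows and detection was not tested.

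Chrnb2, the most widespread neuronal beta subunit gene, lies on chromosome 3 (89746195 to 89764632, minus strand) and was detected in 2 neurons, with a mean of 0.788 ± 1.55 FPKM (SD, n = 10 neurons). It was at 4.54 FPKM in sample 7, from 977 fragments (917 to 1040 by the Poisson interval), and at 2.55 FPKM in sample 9, from 471 fragments. Sample 5 was just below the limit at 0.782 FPKM, from 240 fragments, sample 6 had 3 fragments, sample 3 had 1 and the other 5 neurons had 0. Chrnb2 was thus detected in 1 Type-1 and 1 Unknown neuron, and its mean was 0.371 FPKM without sample 7. Chrnb2 shares 1365 of its 8380 exon bases with Adar, an RNA-editing enzyme gene on the opposite strand. Adar had 1518 fragments in sample 1, 1470 in sample 6 and 807 in sample 10, where Chrnb2 had 0, 3 and 0. In samples 5, 7 and 9, the neurons with the most fragments of Chrnb2, Adar had 3270, 1032 and 2096 fragments. It had between 1 and 4 in samples 2, 3, 4 and 8. Reads of the bases shared by Chrnb2 and Adar cannot be told apart.

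**Figure D3:**
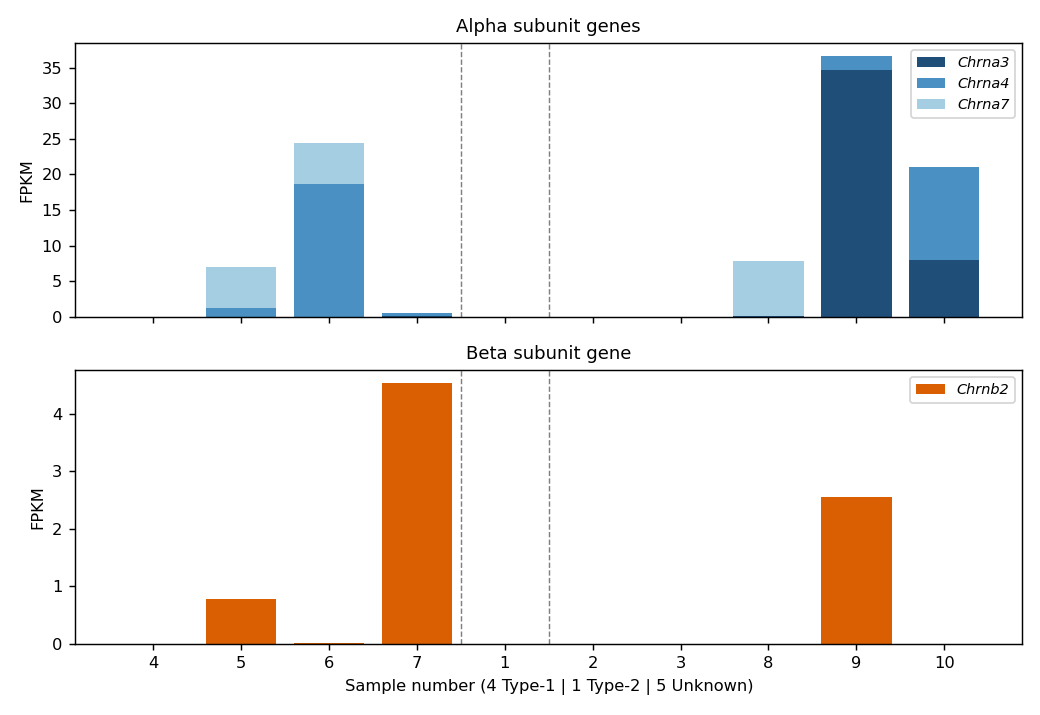
FPKM of the alpha subunit genes Chrna3, Chrna4 and Chrna7 (top, stacked) and of the beta subunit gene Chrnb2 (bottom) in each neuron; the vertical scales differ, and samples are grouped by neuron type. Sample 9 has both kinds above 1 FPKM, samples 5, 6, 8 and 10 only alpha genes, and sample 7 only Chrnb2.

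The subunit genes were next read neuron by neuron, since most nicotinic receptors need an alpha and a beta subunit. With 1 FPKM as the limit, 1 neuron, sample 9, held both kinds: Chrna3 and Chrna4 summed to 36.7 FPKM with the little Chrna7 there, and Chrnb2 was at 2.55 FPKM. Alpha genes without Chrnb2 or Chrnb4 were found in 4 neurons, namely samples 5 and 6 (Chrna4 and Chrna7), 8 (Chrna7) and 10 (Chrna3 and Chrna4). The product of Chrna7, the only alpha gene at the limit in sample 8, can form a channel by itself. Of protein-coding genes, 37.2%, 34.5%, 36% and 36.4% were at 1 FPKM or more in samples 5, 6, 8 and 10. Whether a beta gene below the limit was missed in these libraries was not tested. Sample 7 held Chrnb2 without an alpha gene at the limit, and samples 1 to 4 held neither. Sample 10 is the clearest case, with the summed alpha level at 21 FPKM and 0 fragments of both Chrnb2 and Chrnb4. With the limit at 0.5 FPKM, samples 5 and 7 also held both kinds, from Chrnb2 at 0.782 FPKM in the former and Chrna4 at 0.504 FPKM in the latter.

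Among the 11 other acetylcholine receptor genes, 9 had 0 fragments in every neuron: Chrna1, Chrna2, Chrna6, Chrna9, Chrna10, Chrnb3, Chrnd, Chrne and Chrng. Chrnb1, the beta subunit gene of the muscle receptor, was the only one of the 11 at 1 FPKM or more, at 10.6 FPKM in sample 7 from 692 fragments (641 to 746 by the Poisson interval). It had 2 fragments in sample 3 and 0 in the other 8 neurons. The partner genes of the muscle receptor, Chrna1, Chrnd, Chrne and Chrng, were at 0 fragments in sample 7.

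The number of the 10 receptor genes at 1 FPKM or more was 0, 3, 3 and 1 in the Type-1 samples 4, 5, 6 and 7, 0 in the Type-2 sample 1, and 1, 0, 2, 4 and 2 in the Unknown samples 2, 3, 8, 9 and 10. The mean was 1.75 ± 1.50 per Type-1 neuron (SD, n = 4) and 1.80 ± 1.48 per Unknown neuron (SD, n = 5), a difference far smaller than either SD. Over protein-coding genes, 32.9% of the gene and neuron combinations were at the limit in Type-1 neurons and 27.9% in Unknown neurons, against 17.5% and 18% for the receptor genes. Without sample 4 the Type-1 mean was 2.33. By mouse line, the mean was 1.75 ± 1.50 in the 4 neurons labelled Dbx1-derived and 1.50 ± 1.52 in the 6 labelled WT. These lines follow the GEO labels. The study's text likewise names 3 Type-1 neurons and the Type-2 neuron as Dbx1-derived. It gives 1 Type-1 neuron and the 5 Unknown neurons as from CD-1 mice. Legends in the study assign the mouse lines to the samples differently from both.

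The Type-2 neuron had 1 fragment of the 10 receptor genes in all, and samples 3 and 4 had 4 and 7. These 3 libraries had 19.2%, 19.5% and 26.2% of protein-coding genes at 1 FPKM or more, against 37.2%, 34.5%, 33.5%, 36% and 36.4% in samples 5, 6, 7, 8 and 10. Sample 2, with 21.3%, held Chrm2 alone. Sample 9 held the most receptor genes, 40%, with 26.5% of protein-coding genes at the limit. Low detection at large thus went with few receptor genes in samples 1 to 4 and not in sample 9, and its part in the zeros was not tested.

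**Figure D4:**
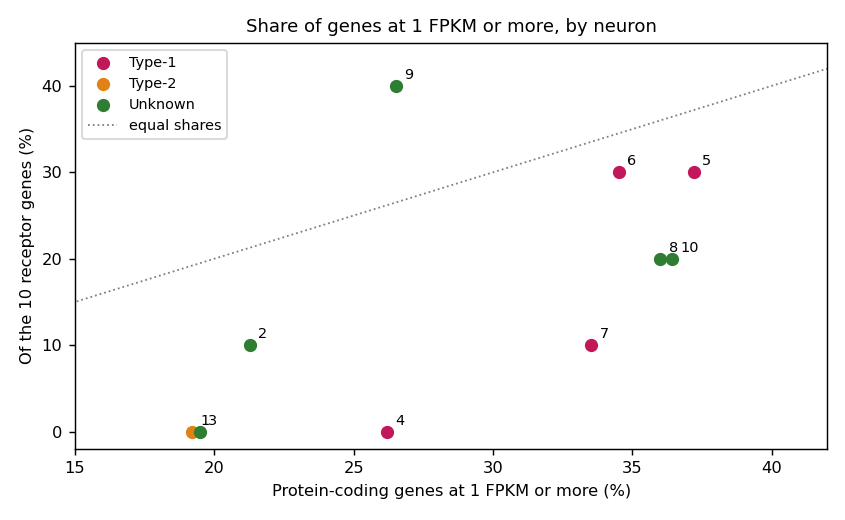
Share of the 10 receptor genes against the share of all protein-coding genes at 1 FPKM or more; each point is 1 neuron with its sample number, coloured by type, and the dotted line marks equal shares. Sample 9, at 40% of the receptor genes and 26.5% of protein-coding genes, is the only neuron above the line.

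By age, the same count was 0, 0, 3 and 2 in the P0 neurons (samples 1, 3, 5 and 8), 2 in the P1 neuron, 1 and 4 in the P2 neurons (samples 2 and 9) and 0, 3 and 1 in the P3 neurons (samples 4, 6 and 7). The ranges overlap at every age with more than 1 neuron.

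For single genes, the difference between Type-1 and Unknown neurons in mean log2(FPKM + 1) was within the spread between neurons. Chrm2 averaged 1.50 ± 1.99 in Type-1 (SD, n = 4) and 2.49 ± 2.32 in Unknown neurons (SD, n = 5), a difference of -0.99 that was -0.50 without sample 4, -1.93 without sample 6, -0.55 without sample 7, -0.49 without sample 2, -0.46 without sample 9 and -1.61 without sample 3 or 10. Chrna7 averaged 1.39 ± 1.60 and 0.64 ± 1.40, a difference of 0.75 that was 0.28 without sample 5, 0.29 without sample 6, 1.37 without sample 8 and 1.21 without sample 4 or 7. Chrna4 differed by 0.43 and Chrnb2 by 0.46, and both changed sign without 1 library, to -0.50 without sample 6 and to -0.08 without sample 7. The difference of Chrna4 reached 1.11 without sample 10 and that of Chrnb2 reached 0.83 without sample 9, the highest values on leaving out 1 neuron. Chrna3 averaged 0.02 ± 0.02 and 1.67 ± 2.38, a difference of -1.65 that comes from samples 9 and 10 and was -0.78 without sample 9. For Chrm3 and Chrnb4, both below 1 FPKM everywhere, the difference was -0.03 and 0.01.

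The values of Type-1 and Unknown neurons overlapped for each of the 10 genes, also without sample 4. Of the 16546 genes detected in 1 neuron or more, the types did not overlap in 0.973%, or 4.18% without sample 4. Of the 5 detected receptor genes, 3 (Chrna3, Chrna4 and Chrnb2) took more than 50% of their summed FPKM from 1 neuron, and over those 16546 genes 48.5% did. The order of the mean FPKM was Chrm2, Chrna3, Chrna4, Chrna7 and Chrnb2, and no neighbours in it differed by more than their SD over neurons. Without sample 9, Chrna3 (0.896 FPKM) came after Chrna4 (3.71 FPKM) and Chrna7 (2.17 FPKM), and as TPM, a scale set by transcript shares within each library, Chrna4 (10.3) came before Chrna3 (9.30).

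Genes for making and packaging acetylcholine were detected mainly in sample 9. Of the 7 genes for its synthesis, transport and breakdown, sample 9 had 5 at 1 FPKM or more and every other neuron 1 or 2. Over all neurons, 27.1% of these combinations were at the limit, near the 29% over protein-coding genes. Slc18a3 was at 444 FPKM in sample 9 and at 0.317 FPKM or less elsewhere, where 28 fragments in sample 5 stood beside 25.3 expected from other libraries. Slc18a3 itself meets the rule for genes private to sample 9 that set these rates. Its expected count is therefore not independent of its own fragments. Chat, the synthesising enzyme, was at 1.80 FPKM in sample 9 and at 0 fragments in the other 9, and Slc5a7, the choline transporter, was at 28.8 FPKM in sample 9 and 1.16 FPKM in sample 6. Ache, which breaks acetylcholine down at the synapse, was detected in all 10 neurons, with 6.93 FPKM in sample 4 as the lowest level, 222 FPKM in sample 9 as the highest and a median of 61.7 FPKM. The related Bche reached 16.04 FPKM in sample 9, 1.98 FPKM in sample 1 and no more than 0.0243 FPKM elsewhere, and of the Ache anchor genes, Colq was below 1 FPKM everywhere and Prima1 was at 4.18, 9.20 and 7.51 FPKM in samples 2, 7 and 8.

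Of the 8 genes for assembly and modulation of nicotinic receptors, between 2 and 8 were at 1 FPKM or more per neuron. Over all neurons, 56.2% of these combinations were at the limit, against 29% over protein-coding genes. Tmem35a, a chaperone needed for assembly of receptors such as that of Chrna7, was at 8.73 to 94.5 FPKM in samples 5 to 10, the 6 neurons with a nicotinic gene at the limit, and did not exceed 0.219 FPKM in samples 1 to 4. Among the 16546 genes, 0.798% were at 1 FPKM or more in all of samples 5 to 10 and in none of samples 1 to 4. This split was taken from the same data, and no other gene of the list followed it. The split also coincides with library quality. For the libraries without a nicotinic gene at the limit, the study reports the lowest cDNA concentrations and lower expression of a portion of genes. A link of Tmem35a with the nicotinic genes apart from library quality was not tested. The chaperone Ric3 was at 12.8, 1.04 and 17.4 FPKM in samples 5, 6 and 8, the neurons with Chrna7. It was also at 3.16, 2.01, 16.1 and 6.71 FPKM in samples 1, 4, 7 and 9, which lacked Chrna7 at the limit. Ly6h and Ly6e, of the Ly6 family of proteins that bind nicotinic receptors, had medians of 12.3 and 18.4 FPKM. Ly6h was detected in all 10 neurons, while Ly6e was highest in sample 4, at 129 FPKM. Lypd6b, of the same family, had a median of 13.9 FPKM and was detected in 6 neurons.

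The G proteins downstream of the muscarinic receptors were broadly present. Of the 9 genes of the Gi/o arm, between 3 and 7 were at 1 FPKM or more per neuron, and the highest medians were those of Gnb1 (109 FPKM), Gnai1 (72.5 FPKM) and Gnai2 (32.3 FPKM), which encode a beta subunit and alpha subunits. In the 5 neurons with Chrm2, Gnai1 was between 23.8 and 135 FPKM and Gnao1, the brain Go alpha subunit, between 11.7 and 31.1 FPKM. Of the potassium channel genes that Gi/o can open, 3 were measured, and these were mostly below 1 FPKM in neurons with and without Chrm2. Of Kcnj3, Kcnj6 and Kcnj9, 1 of the 5 neurons with Chrm2 held any at 1 FPKM or more, namely sample 9 with Kcnj3 at 23.8 FPKM. Of the 5 without Chrm2, 3 did, samples 4, 7 and 10, with Kcnj9 at 2.35, 9.60 and 4.59 FPKM. Sample 4 is the library with low neuronal and high microglia markers. Over protein-coding genes, 29% of the gene and neuron combinations were at 1 FPKM or more. A link of the channel genes with Chrm2 was not tested.

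Of the 8 genes of the Gq arm, between 2 and 6 were at 1 FPKM or more per neuron, although no Gq-coupled muscarinic gene was. Gna11, a Gq-class alpha subunit, and Plcb4, a phospholipase C, were detected in 9 neurons each, with medians of 30.1 and 11.4 FPKM. Gna11 was low in sample 4, at 0.0663 FPKM, and Plcb4 in sample 1, at 0.0782 FPKM. Gnaq, the Gq alpha subunit itself, had a median of 1.96 FPKM and was highest in sample 5, at 16.3 FPKM. Kcnq5, a potassium channel subunit gene, was detected in sample 6 alone, at 6.54 FPKM. Over all combinations of gene and neuron, 55.6% were at the limit in the Gi/o list and 47.5% in the Gq list. The assembly list had 56.2% and the synthesis list 27.1%. The share was 16% for the receptor genes and 29% over protein-coding genes.

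**Figure D5:**
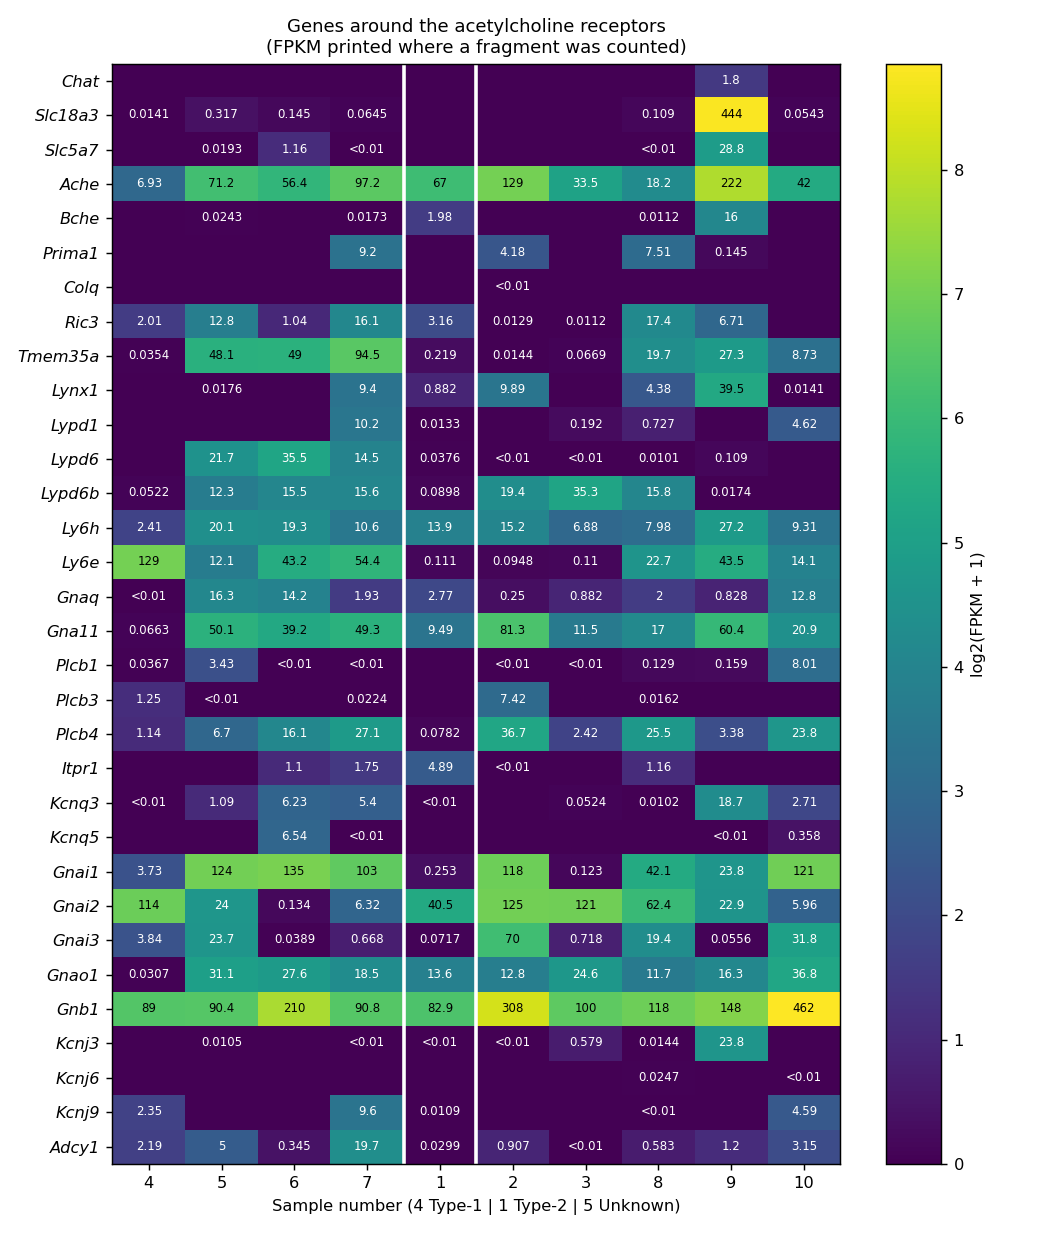
Levels of the genes for acetylcholine synthesis, transport and breakdown (Chat to Colq), nicotinic receptor assembly and modulation (Ric3 to Ly6e), the Gq arm (Gnaq to Kcnq5) and the Gi/o arm (Gnai1 to Adcy1); columns are samples grouped by neuron type, colour is log2(FPKM + 1), and FPKM is printed where a fragment was counted. Ache, Ly6h and Gnb1 are detected in all 10 neurons, and Slc18a3 at 444 FPKM stands out in sample 9.

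The genes whose levels were most like those of Chrm2 and Chrna4 were sought by Pearson's r of log2(FPKM + 1) over the 10 neurons, among 10420 genes detected in 3 neurons or more. For Chrm2 these were 2900093K20Rik (r = 0.962, Spearman's rho = 0.866), Med13l (r = 0.948, rho = 0.973) and Kcnd2, an A-type potassium channel gene (r = 0.921, rho = 0.796). Kcnd2 was at 39.6, 35.3, 31.1 and 12.8 FPKM in samples 2, 6, 8 and 9, and at 0.0424 FPKM in sample 5, where Chrm2 was at 1.69 FPKM. For Chrna4 they were Chic1 (r = 0.97), Cpne5 (r = 0.953) and Sox11 (r = 0.948, rho = 0.50). With 10 points that share libraries and 10420 genes compared, such values describe these neurons only.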

How the data were processed

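RNA of 10 patched preBötC neurons was sequenced as SMART-Seq v4 cDNA in Nextera libraries. The authors trimmed the reads with bbduk, checked them with FastQC 0.11.8 and aligned them to GRCm38 with STAR 2.7.7a (versions per the submitters' processing notes). The deposited counts are raw fragments on each gene from featureCounts, with no normalization. Strand, multi-mapping and overlap settings are not given in the sources used here. The authors also deposited FPKM values, which equal the counts divided by the deposited gene lengths (in bases) and by the fragments on genes.

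From these files, levels, counts with exact 95% Poisson intervals, numbers of genes at 1 FPKM or more and differences of mean log2(FPKM + 1) were computed. The pseudocount of 1 understates differences of low genes. Depth was 21392146 to 36629393 fragments. Neurons were grouped by the electrophysiological phenotype in the labels. No test between types was made, since the labels name no animal; Dixon's criterion was applied within types. Fragments expected from other libraries used genes private to 1 library (a minimum of 1000 counts there, no more than 2% of it elsewhere), with 5% trimmed. In simulated libraries of 55367 genes with a rate of 0.06%, the median found in 16 linked pairs was 0.0591%. The genes made private in the simulation were set to 0 elsewhere before reads were added. Recovery of the rate there therefore does not show that real low expression in other libraries is kept out of the expected fragments. The receptor genes, lists and settings were chosen with earlier results of these data known. Named list genes were the 3 with the highest median FPKM and those detected in exactly 1 neuron. Slc5a7, Colq, Prima1, Ric3, Ly6h, Gnao1, Kcnj6, Kcnj9 and the receptor genes at 0 were added after their values were seen. So were the marker genes Prph, Isl1, Mnx1, Slc17a6, Gad1, Gad2, Slc32a1 and Slc6a5. Positions are from GENCODE M21, which holds 10 of 10 receptor symbols, and promoters from RefSeq (9 of 10). Protein sequences were not used here. A gene of the Gq list is not reported here. Calculations ran in Python 3.11.15 with SciPy 1.17.1, pandas 2.3.3 and NumPy 2.4.6, and Matplotlib 3.10.9 drew the plots.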

Additional observations from a re-analysis of the deposited data

Results flagged for a closer look

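Of 22 groups of values within Type-1 or Unknown neurons, 7 held the same value in all neurons. Of the other 15, 5 held a neuron whose gap to the rest passed Dixon's 95% critical value on the log2(FPKM + 1) scale. The criterion is meant to pass about 1 in 20 groups by chance, a rate that does not hold where nearly all neurons are at or near 0, as in each of these 5. Among Unknown neurons, Chrna7 was at 7.82 FPKM in sample 8, and the other 4 did not exceed 0.0214 FPKM. Also among Unknown neurons, Chrnb2 was at 2.55 FPKM in sample 9, and the other 4 did not exceed 0.00383 FPKM. The other 3 were below 1 FPKM and had 0 fragments in the rest of their group: Chrm3 at 0.176 FPKM in sample 2 (Unknown) and at 0.0374 FPKM in sample 7 (Type-1), and Chrnb4 at 0.0182 FPKM, from 2 fragments, in sample 4 (Type-1).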

How the results depend on the processing

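No paired analysis was possible because no test was made and the replicate numbers only name neurons in accession order. The 16 combinations of gene and neuron at 1 FPKM or more became 18 at 0.5 FPKM, 11 at 5 FPKM, 20 with at least 10 fragments, 18 with TPM and 15 with median-of-ratios size factors, and stayed at 16 after subtraction of fragments expected from other libraries, with counts of 1 or 2 set to 0, or with libraries thinned to the smallest total. Leaving out 1 neuron gave 12 (without sample 9) to 16. Without samples 1 to 4, a choice made after seeing the data, 15 combinations remained, with means of 2.33 per Type-1 and 2.67 per Unknown neuron. The difference between types moved by more than the spread between neurons with a pseudocount of 0.1 for Chrm3 (-0.18) and Chrnb4 (0.0605), and by over 1.5 times for Chrna4 (1.16), Chrnb2 (1.25), Chrna7 (1.60) and Chrna3 (-2.82). It changed sign for Chrm3 without sample 2 (0.01) and without samples 1 to 4 (0.02), for Chrna4 without sample 6 (-0.50) and for Chrnb2 without sample 7 (-0.08). With TPM the mean was 10.3 for Chrna4 and 5.36 for Chrna7. The difference between types with TPM was 0.80 for Chrna4, 0.87 for Chrnb2 and 1.21 for Chrna7. With median-of-ratios size factors it was 0.27, 0.27 and 0.57 for the same genes. Without samples 1 to 4 it was -2.76 for Chrna3 and 0.21 for Chrna4. Depth sets the FPKM that the limit of 3 fragments stands for.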
